A study of Mus musculus with 6 samples.

Results

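Translation factors are the proteins that bring the initiator tRNA, the messenger RNA and the ribosome together and then drive the ribosome along the message. Their genes were taken here as every symbol of the count table beginning with Eif1 to Eif6, Eef1 or Eef2, leaving out the sex-chromosome genes Eif1ax, Eif2s3x and Eif2s3y and the Eif2ak kinase genes. The rule found 56 of the 24062 symbols of the table, and 52 of them had enough reads to be tested among 13990 genes. The rule itself reads only the symbol, and it was set with earlier results of these data known. Messenger RNA was counted in mouse embryonic fibroblasts, connective tissue cells of C57BL/6 embryos, that carried p27 from a lentivirus (p27OE, 3 libraries), and in cells labelled EV control, an abbreviation the labels do not spell out (3 libraries), all at day 10. Per the labels, every cell came from the same tissue and strain. The labels do not say whether libraries of a group came from separate embryos or cultures, and a p-value here reflects only how far these libraries spread. That spread may be technical in part, and it includes differences in sex-linked transcripts within both groups, given below. The series text calls the cells non-senescent while the p27OE titles call them senescent.

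Initiation begins when eIF1, eIF1A, eIF3 and the eIF2 carrier of the initiator tRNA load onto the small ribosomal subunit. The eIF4 group binds the cap and unwinds the message, eIF5 and eIF5B join the large subunit, and eEF1 and eEF2 carry elongation. Output is set largely by phosphorylation of eIF2, which blocks its recharging by eIF2B, and by the 4E-BP proteins, which sequester the cap-binding protein eIF4E until the kinase mTORC1 releases it.

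Libraries held 39183624 to 61219345 counts. All 10 fibroblast markers were counted in every library, with sums of 46437 to 50067.5 CPM in p27OE cells and 42435 to 62519.5 CPM in EV control cells. Summed macrophage markers were at 16.8 to 32.3 CPM in p27OE cells and at 80.5 CPM in EV control 1 and 14.8 to 17.8 CPM in EV control 2 and 3. Endothelial markers summed to 4.28 to 7.73 CPM in p27OE cells and 3.29 to 3.88 CPM in EV control cells, and epithelial markers to at most 8.24 CPM in p27OE cells and 4.52 CPM in EV control cells. CPM is a gene's count scaled to the same library total in every sample, with TMM factors. Cdkn1b, the gene of p27, stood at 167, 232 and 337 CPM in p27OE cells, against 43.9, 31.5 and 32.3 CPM in EV control cells, a log2 fold change of 2.77 ± 0.29 (standard error, as throughout after a fold change; adjusted p = 0.028 with edgeR). That call was lost without any single library other than EV control 1 (adjusted p 0.0563 to 0.189). The p27OE libraries were spread out with p27OE 2 between the others, and EV control 1 stood apart from the other EV control libraries: summed transcripts of the Y-linked genes Ddx3y, Kdm5d and Uty were at 1.28 CPM in p27OE 1 and 0.13 CPM in EV control 1, against 39.6 and 93.1 CPM in p27OE 2 and 3 and 89.6 and 89.0 CPM in EV control 2 and 3. Xist, expressed from the inactive X chromosome, was at 330, 164 and 0.46 CPM in p27OE 1, 2 and 3, against 407, 5.67 and 0.68 CPM in EV control 1, 2 and 3. Sex-linked transcripts thus differed within both groups, and not in the same way, since p27OE 2 lay between p27OE 1 and 3. The transcript of the proliferation marker Mki67 was at 137, 109 and 69.0 CPM in p27OE 1, 2 and 3, against 206, 194 and 194 CPM in EV control 1, 2 and 3. The part of the macrophage, Mki67 and sex-linked differences in the values below was not tested. Values without the libraries numbered 1 are given further on, but those fits keep the Mki67 difference. Mki67 was at 109 and 69.0 CPM in p27OE 2 and 3, against 194 CPM in both EV control 2 and 3. The macrophage sums there were 25.1 and 32.3 CPM, against 17.8 and 14.8 CPM.

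Most translation factor genes stood slightly lower in p27OE cells, and none passed the test one by one. Of the 52 tested genes, 43 had a log2 fold change under 0 and 9 had one over 0. Their median was −0.18. The corresponding values over all 13990 tested genes were 48.2% below 0 and a median of 0.014. The differences were small, since the extreme values were −0.48 for Eif3c and 0.32 for Eif5a2, and the median size of a change was 0.20 here and 0.22 over all genes. With edgeR's quasi-likelihood test and Benjamini-Hochberg adjustment over all tested genes, 0 rose and 0 fell at an adjusted p under 0.05, where 1.77% of all genes were called higher and 0.843% lower. The smallest adjusted p was 0.0664. At an unadjusted p under 0.05 there were 16 lower and 3 higher genes, against 12.9% and 13.1% of all genes. DESeq2 called 13 lower and 2 higher (8.41% and 8.18% of all genes), and limma-voom called 0 in each direction (0.958% of all genes lower and 2.03% higher).

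**Figure D1:**
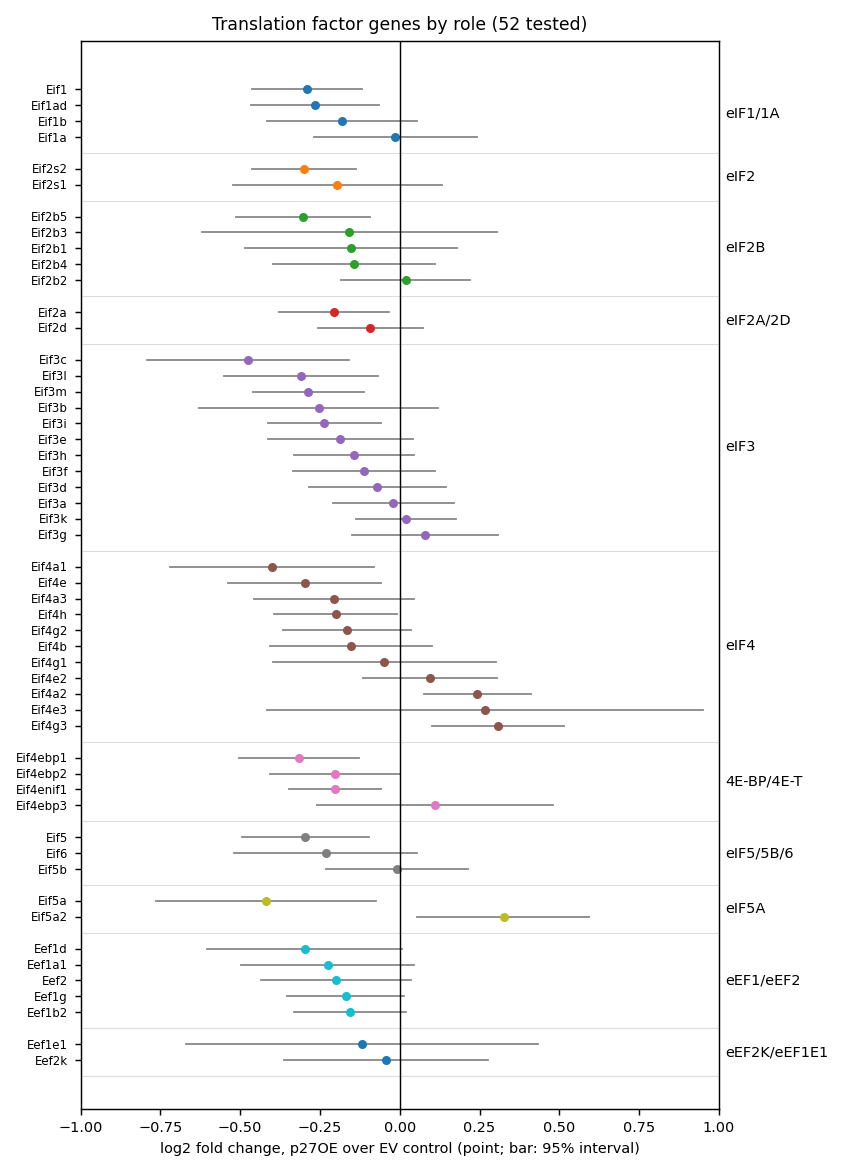
Log2 fold change (x axis, p27OE over EV control) of the 52 tested translation factor genes, grouped by role; points are edgeR estimates and bars 95% intervals. Points to the left of 0 are lower in p27OE cells: 43 genes lie there and 9 to the right, led by Eif5a2, Eif4g3, Eif4e3 and Eif4a2.

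**Figure D2:**
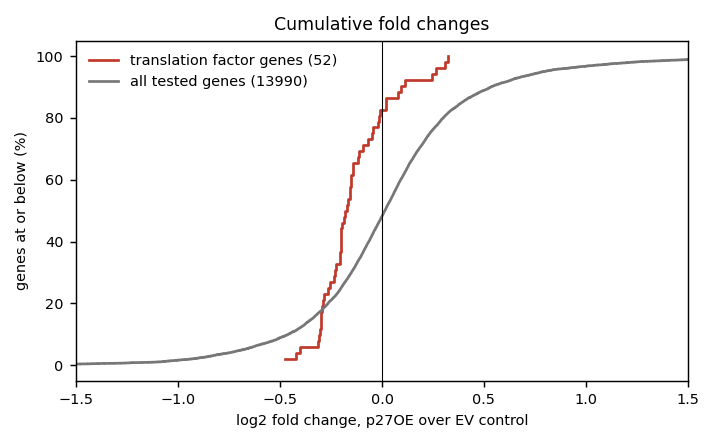
Cumulative percentage of genes (y axis) at or below each log2 fold change (x axis, p27OE over EV control) for the 52 translation factor genes and all 13990 tested genes. The translation factor curve reaches 82.7% at 0, where that of all genes reaches 48.2%, and ends at 0.32.

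In 24 of the 52 genes all 3 p27OE libraries were below all 3 EV control libraries, and in 4 genes all were above. Among all tested genes the groups did not overlap in 16.5% with p27OE lower and in 16.8% with p27OE higher, 33.3% in all. Added together, the 56 genes held 2.45, 2.35 and 2.14% of all counts in p27OE 1, 2 and 3, against 2.73, 2.63 and 2.61% in EV control 1, 2 and 3. The difference of the means was −0.34 percentage points, and the groups did not overlap. After TMM scaling the sums were 2.37, 2.31 and 2.24% in p27OE cells, against 2.68, 2.66 and 2.64% in EV control cells. Without Eef1a1 and Eef2 the sums were 1.22, 1.23 and 1.18% in p27OE cells, against 1.32 to 1.41% in EV control cells, still without overlap. These are shares of a library; in bulk RNA, fewer cells of a type and less RNA per cell cannot be told apart, and the total RNA of a cell was not measured.

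The elongation factor genes Eef1a1, Eef2 and Eef1g had the highest levels among the members, while Eef1d had 30.9 RPKM in p27OE cells and 38.0 RPKM in EV control cells. Per kilobase of exon, Eef1a1, which delivers aminoacyl-tRNA to the ribosome (chromosome 9, 78478449 to 78489151, GRCm38), averaged 3339 RPKM in p27OE cells and 3903 RPKM in EV control cells. Next came Eef2, the translocation GTPase (chromosome 10, 81176631 to 81182498), at 807 RPKM in p27OE cells and 927 RPKM in EV control cells. RPKM is CPM divided by the kilobases covered by all annotated exons of a gene together, 6488 bases for Eef1d and 2493 for Eef1a1. A long total lowers RPKM, and the shares among related genes given below use the same lengths. Processed copies of Eef1a1 elsewhere in the genome may take or add reads.

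Eef1a1 had 9076, 8283 and 7615 CPM in p27OE cells, against 10529, 9368 and 9291 CPM in EV control cells. EV control 1 was highest and p27OE 3 lowest, and the groups did not overlap, with p27OE 1 and EV control 3 nearest to each other. The log2 fold change was −0.23 ± 0.11 (adjusted p = 0.265 with edgeR). Eef2 had 2815, 2733 and 2499 CPM in p27OE cells, against 3325, 2959 and 2962 CPM in EV control cells, again with EV control 1 highest and no overlap, and a log2 fold change of −0.20 ± 0.098 (adjusted p = 0.255 with edgeR). Eef1b2, a nucleotide exchange factor that recharges eEF1A, had 748, 713 and 713 CPM in p27OE cells, against 818, 799 and 801 CPM in EV control cells. Its groups were separate and its log2 fold change was −0.15 ± 0.073. The other 2 exchange subunits tested, Eef1g and Eef1d, had log2 fold changes of −0.17 and −0.30, so all 5 tested elongation factors lay below 0 (48.2% of all tested genes), and 4 of them without overlap (16.5% of all tested genes), but none passed (smallest edgeR adjusted p = 0.202). Eef1a2, the muscle and neuron form of eEF1A, was at 4 counts in p27OE 2, 2 counts in EV control 3 and 0 in the other libraries. A count of 0 allows up to 3 counts, 0.062 to 0.069 CPM in p27OE libraries and 0.049 to 0.077 CPM in EV control libraries, for counting error only. Eef2k, the kinase that inactivates eEF2, had 87.7, 86.3 and 74.8 CPM in p27OE cells, against 102, 76.9 and 77.5 CPM in EV control cells. EV control 1 was the highest library and the groups overlapped; the log2 fold change was −0.043 ± 0.13 (95% interval −0.36 to 0.28), and it was 0.088 without EV control 1 and 0.025 without p27OE 3. Eef1e1, a scaffold protein of the tRNA synthetase complex, was at −0.12.

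Start codon selection is the task of eIF1 and eIF1A. Eif1 (chromosome 11, 100319885 to 100322096) had 337, 324 and 312 CPM in p27OE cells, against 389, 403 and 397 CPM in EV control cells. Every p27OE library was lower than every EV control library and the spread within each group was narrow. The log2 fold change was −0.29 ± 0.072 (adjusted p = 0.0723 with edgeR), a ratio of 0.818. Eif1ad, which carries an eIF1A-like domain, had 33.0, 31.0 and 29.1 CPM in p27OE cells, against 35.6, 36.5 and 40.0 CPM in EV control cells, with no overlap and a log2 fold change of −0.27 ± 0.083 (adjusted p = 0.11 with edgeR). Eif1b was at −0.18 and Eif1a at −0.014, so all 4 genes grouped here by name lay below 0 (48.2% of all tested genes) and 0 passed.

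The carrier of the initiator tRNA, eIF2, has 3 subunits, and the genes of its alpha and beta subunits are members here. Eif2s2, the beta subunit (chromosome 2, 154871410 to 154892935), had the smallest p of all members and 256, 257 and 244 CPM in p27OE cells, against 316, 307 and 309.8 CPM in EV control cells. The groups were far apart relative to their spread, at 253 ± 7.10 CPM in p27OE cells and 311 ± 4.23 CPM in EV control cells (SD, n = 3 each), and the log2 fold change was −0.30 ± 0.068 (adjusted p = 0.0664 with edgeR). Eif2s1, the alpha subunit whose phosphorylation shuts down general initiation, had 119, 126 and 139.8 CPM in p27OE cells, against 119, 161 and 161 CPM in EV control cells. EV control 1 lay with the p27OE libraries at the low end, the groups overlapped, and the log2 fold change was −0.20 ± 0.14 (adjusted p = 0.416 with edgeR).

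The exchange factor eIF2B reloads eIF2 with GTP and has 5 subunits. Its catalytic subunit gene Eif2b5 had 76.6, 81.6 and 84.8 CPM in p27OE cells, against 90.0, 105 and 104 CPM in EV control cells, without overlap and with a log2 fold change of −0.30 ± 0.087 (adjusted p = 0.0931 with edgeR). Eif2b1, Eif2b3 and Eif2b4 had log2 fold changes of −0.15, −0.16 and −0.14, and Eif2b2 of 0.018, each with overlapping groups. Eif2a and Eif2d, which can deliver initiator tRNA without eIF2, were at −0.21 and −0.092.

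The eIF3 complex is the large scaffold on which the initiation complex is built. Of its 12 tested subunit genes, 10 lay below 0 and 2 above, with a median log2 fold change of −0.16; 0 passed, 5 had non-overlapping lower values (16.5% of all tested genes), and 4 were lower at an unadjusted p under 0.05 (12.9% of all tested genes). Its members were not uniform. Eif3c (chromosome 7, 126546455 to 126566411) had 415, 386 and 335 CPM in p27OE cells, against 612, 487 and 481 CPM in EV control cells, with EV control 1 well above the rest and every p27OE library lower than every EV control library. Its log2 fold change of −0.48 ± 0.13 (adjusted p = 0.0881 with edgeR) was the lowest of all 52 genes. That rank depended on EV control 1. Without that library Eif3c was at −0.37, and Eif5a and Eif4a1 were lower at −0.575 and −0.537. Eif3m had 105, 99.3 and 94.3 CPM in p27OE cells, against 116, 125 and 123 CPM in EV control cells, a log2 fold change of −0.29 ± 0.072 (adjusted p = 0.0743 with edgeR). Eif3i had 164, 167 and 169.6 CPM in p27OE cells, against 184, 205 and 202 CPM in EV control cells, also without overlap, and a log2 fold change of −0.24 ± 0.074 (adjusted p = 0.109 with edgeR). Eif3a, the largest subunit of the complex, had 507, 527 and 564 CPM in p27OE cells, against 527, 537 and 558 CPM in EV control cells. All of its libraries lay in 1 narrow band, and the log2 fold change was −0.020 ± 0.079 with a 95% interval of −0.21 to 0.17. Eif3k and Eif3g stood at 0.020 and 0.079. Eif3j1 and Eif3j2, closely related copies of the gene for the loosely bound j subunit, were listed at 0 counts in every library; whether reads matching both copies were left uncounted was not tested.

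**Figure D3:**
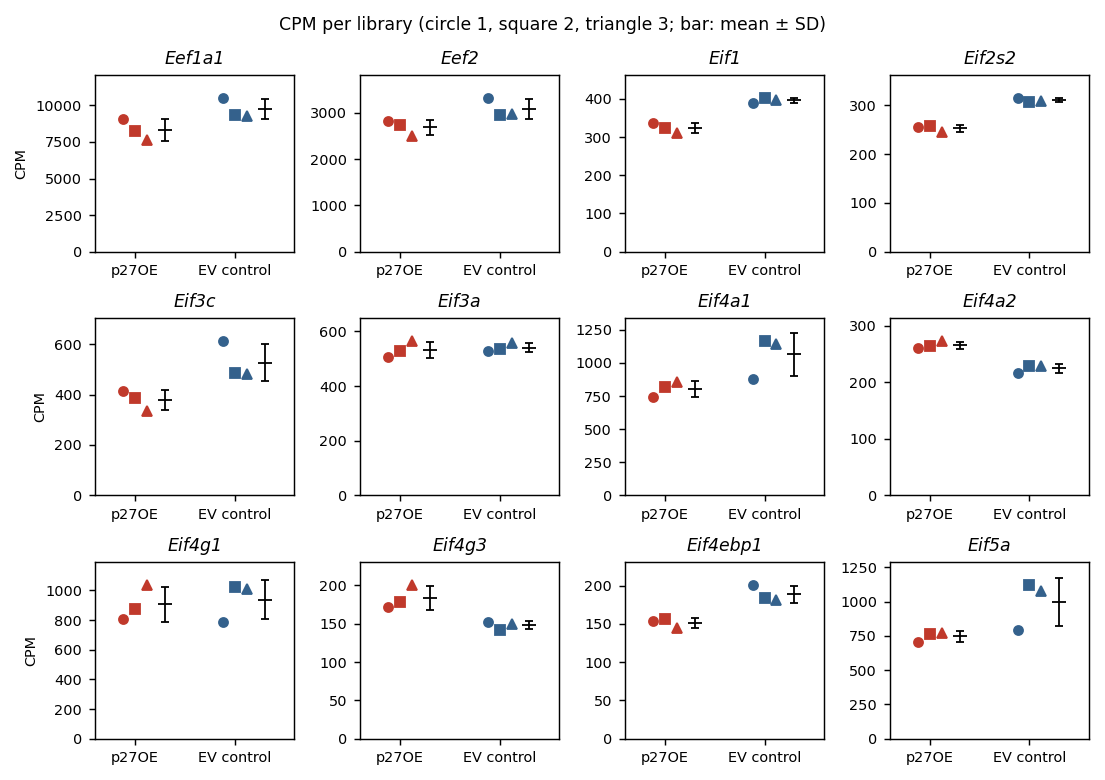
CPM (y axis, from 0) of 12 translation factor genes in each p27OE library (left, red) and EV control library (right, blue), with the mean and SD of each group beside the points. Eif1, Eif2s2 and Eif3c are lower in every p27OE library, Eif4a2 and Eif4g3 are higher in every one, Eif3a and Eif4g1 overlap, and the libraries numbered 1 (circles) are the lowest of their group in Eif4a1, Eif5a and Eif4g1.

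The eIF4 group held both the lower and the higher genes. Among 11 tested cap-binding and helicase genes, 7 lay below 0 (48.2% of all tested genes) and 4 above (median −0.15), and 0 passed. Eif4a1, the main RNA helicase of initiation (chromosome 11, 69666936 to 69672423), had 739.7, 822 and 855 CPM in p27OE cells, against 880.5, 1165 and 1147 CPM in EV control cells. EV control 1 lay close above the p27OE libraries and far below the other 2 EV control libraries. The log2 fold change was −0.40 ± 0.13 (adjusted p = 0.123 with edgeR), and between the libraries numbered 1 alone the difference was −0.25, against −0.43 between p27OE 3 and the mean of EV control 2 and 3.

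Its close relative Eif4a2 (chromosome 16, 23107444 to 23114136) stood higher in p27OE cells, with 261, 263 and 273 CPM in p27OE cells, against 216, 229.5 and 228 CPM in EV control cells. Every p27OE library was higher than every EV control library, and the log2 fold change was 0.24 ± 0.070 (adjusted p = 0.0938 with edgeR). Between the libraries numbered 1 it was 0.27, and between p27OE 3 and the mean of EV control 2 and 3 it was 0.25. Eif4g3, a form of the scaffold eIF4G, had 171, 178 and 201 CPM in p27OE cells, against 152, 142 and 150.2 CPM in EV control cells, with no overlap and a log2 fold change of 0.31 ± 0.086 (adjusted p = 0.0887 with edgeR). The main scaffold gene Eif4g1 had 807, 876 and 1039 CPM in p27OE cells, against 786, 1020.0 and 1008 CPM in EV control cells; both libraries numbered 1 were low, the groups overlapped, and the log2 fold change was −0.048 ± 0.14 (95% interval −0.40 to 0.30). Eif4g2, whose product lacks the eIF4E-binding part and serves cap-independent initiation, had 1092, 1101 and 1151 CPM in p27OE cells, against 1171, 1295 and 1285 CPM in EV control cells and a log2 fold change of −0.17 ± 0.084 (adjusted p = 0.267 with edgeR), with separate groups.

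Eif4e, the cap-binding protein, had 100.3, 104 and 109 CPM in p27OE cells, against 112, 138 and 136 CPM in EV control cells. EV control 1 was near the p27OE libraries, which all lay below it, and the log2 fold change was −0.30 ± 0.10 (adjusted p = 0.126 with edgeR). The related cap-binding genes Eif4e2, known for repressing translation, and Eif4e3 were at 0.095 and 0.27, with overlapping groups, and Eif4e1b was at 2 counts in p27OE 2 and 0 elsewhere. The helicase cofactors Eif4b and Eif4h had log2 fold changes of −0.15 and −0.20, and Eif4a3, the helicase of the exon junction complex, of −0.21.

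Setting each gene that is less abundant per kilobase against its relative in the same library removes the library scale. These pairs were taken up after their values were seen, so the shares are described without a test. As a share of the summed CPM per kilobase of Eif4a1 and Eif4a2, Eif4a2 stood at 22.2, 20.7 and 20.6% in p27OE cells, against 16.6, 13.8 and 13.9% in EV control cells. The groups were well separated, with EV control 1 nearest to the p27OE libraries. As a share of Eif4g1 plus Eif4g3, Eif4g3 stood at 12.3, 11.8 and 11.3% in p27OE cells, against 11.3, 8.43 and 8.95% in EV control cells, where p27OE 3 and EV control 1 nearly met. Eif5a2, as a share of Eif5a plus Eif5a2, was at 1.04, 1.01 and 1.08% in p27OE cells, against 0.697, 0.563 and 0.64% in EV control cells, small in both groups and separate. Eif4e2, as a share of the 3 cap-binding genes Eif4e, Eif4e2 and Eif4e3, was at 39.3, 41.0 and 44.6% in p27OE cells, against 36.5, 36.9 and 38.0% in EV control cells, also separate. By mean CPM, without the division by length, Eif4e2 was above Eif4e in p27OE cells (124 and 104) and below it in EV control cells (116 and 128). Eif1b, as a share of Eif1 plus Eif1b, overlapped between groups, at 12.4 to 14.2% in p27OE cells and 12.6 to 13.0% in EV control cells. Eif4e3, among the 3 cap-binding genes, also overlapped, at 10.2 to 18.4% in p27OE cells and 8.77 to 16.5% in EV control cells. Among Eif4ebp1, Eif4ebp2 and Eif4ebp3, Eif4ebp2 overlapped, at 7.57 to 8.69% in p27OE cells and 7.02 to 8.36% in EV control cells. Eif4ebp3 was separate, at 5.23 to 5.99% in p27OE cells and 4.04 to 4.35% in EV control cells. How often gene pairs in general separate was not tested. Because Eif4a1 and Eif4a2 are alike in sequence, the split of their reads depends on how the reads were counted.

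**Figure D4:**
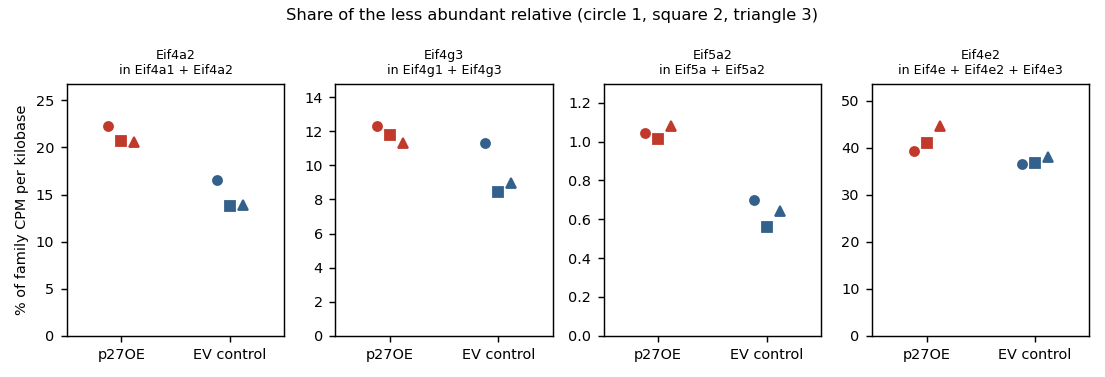
Share (y axis, percent of the family's summed CPM per kilobase, from 0) held by Eif4a2, Eif4g3, Eif5a2 and Eif4e2 in each p27OE library (left) and EV control library (right). In all 4 panels the p27OE points lie above the EV control points, narrowly for Eif4g3, where 11.3% in p27OE 3 and 11.3% in EV control 1 lie side by side. The panels were chosen with the values known, and the shares of Eif1b, Eif4e3 and Eif4ebp2, which overlapped, are not shown. Among all tested single genes, 33.3% had groups that did not overlap.

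Of the 3 4E-BP inhibitor genes, Eif4ebp1 and Eif4ebp2 lay below 0 and Eif4ebp3 above. Groups were separate in each, as in 33.3% of all tested genes in either direction. Eif4ebp1 had 153, 156 and 144 CPM in p27OE cells, against 201, 184 and 181 CPM in EV control cells. All p27OE libraries were below all EV control libraries, of which EV control 1 was highest, and the log2 fold change was −0.32 ± 0.078 (adjusted p = 0.0719 with edgeR). Eif4ebp2 had 35.2, 41.6 and 38.6 CPM in p27OE cells, against 41.9, 45.3 and 45.6 CPM in EV control cells, with p27OE 2 and EV control 1 almost level, and a log2 fold change of −0.20 ± 0.085 (adjusted p = 0.195 with edgeR). Eif4enif1, which carries eIF4E into the nucleus, had 75.8, 71.6 and 73.3 CPM in p27OE cells, against 82.4, 85.8 and 85.8 CPM in EV control cells, with no overlap and a log2 fold change of −0.20 ± 0.060 (adjusted p = 0.0993 with edgeR). Eif4ebp3 was the least abundant of the inhibitors at 3.31 ± 0.111 CPM in p27OE cells and 3.07 ± 0.0264 CPM in EV control cells (SD, n = 3 each). Its log2 fold change was 0.11 ± 0.15 (95% interval −0.26 to 0.48, adjusted p = 0.692 with edgeR).

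The genes of subunit joining and of eIF5A included both separate and overlapping groups. Eif5, which triggers GTP hydrolysis by eIF2, had 219.7, 233 and 236 CPM in p27OE cells, against 261, 297 and 289 CPM in EV control cells, without overlap and with a log2 fold change of −0.30 ± 0.083 (adjusted p = 0.0889 with edgeR). Eif5b, the GTPase that joins the subunits, had 174, 179 and 203 CPM in p27OE cells, against 174, 189 and 197 CPM in EV control cells; its groups lay on top of each other, with a log2 fold change of −0.009 ± 0.093 (95% interval −0.23 to 0.21). Eif6, which keeps free large subunits from joining, had 113, 123 and 124 CPM in p27OE cells, against 117, 151 and 154 CPM in EV control cells, with EV control 1 among the p27OE libraries and a log2 fold change of −0.23 ± 0.12 (adjusted p = 0.275 with edgeR). Eif5a (chromosome 11, 69916714 to 69921958), the factor with the modified residue hypusine that keeps ribosomes moving, had 703, 764 and 772 CPM in p27OE cells, against 796, 1123 and 1076 CPM in EV control cells. EV control 1 was near the p27OE libraries and the other EV control libraries were much higher. The log2 fold change was −0.42 ± 0.14 (adjusted p = 0.131 with edgeR), next to Eif3c the lowest of the members with all libraries in the fit. Eif5a2, its rarer relative, stood at 0.32, with every p27OE library above every EV control library.

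p27OE 1 was outside the range of the other p27OE libraries in 44 of the 52 tested members, against 78.5% of all tested genes, and EV control 1 outside that of the other EV control libraries in all 52, against 88.8%. In 36 of the 52 genes both lay on the same side, against 55.2% of all tested genes. In 11 genes the library numbered 1 was the highest of its group in both p27OE and EV control cells, namely Eef1a1, Eef1b2, Eef2, Eef2k, Eif1b, Eif3c, Eif3e, Eif3f, Eif3h, Eif4b and Eif4e3. In the other 25 it was the lowest in both, among them Eif4a1, Eif4a2, Eif4e, Eif4g1, Eif4g2, Eif5, Eif5a, Eif2s1 and Eif6. Over all tested genes these shares were 28.0% and 27.2%. Within the libraries numbered 1 the median difference of the 52 genes was −0.096 (37 below 0), between p27OE 2 and the mean of EV control 2 and 3 it was −0.20 (44 below 0), and between p27OE 3 and that same mean −0.22 (39 below 0). The medians of all tested genes in these differences were −0.002, 0.018 and 0.026. Without EV control 1, 14 members fell and 0 rose at an adjusted p under 0.05 (6.75% and 6.13% of all genes), whereas leaving out any other single library gave 0 calls among members and 1 or 2 among all genes. Without both libraries numbered 1, 19 fell and 1 rose (8.9% and 7.81% of all genes). In both the fit without EV control 1 and this fit, the EV control group held only EV control 2 and 3. They were the closest pair within a group (chi-square per gene of 6.49, against 55.5 to 188 for the others). A close pair narrows the spread that the test uses, and its part in these counts was not tested. When the Y-linked level entered the fit, 26 fell and 3 rose (15.9% and 18.0% of all genes), the 3 being Eif4a2, Eif4g3 and Eif5a2.

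Messages of many ribosomal proteins and elongation factors are known to begin with a C followed by a run of C and T, the terminal oligopyrimidine tract through which mTORC1 sets their translation. RefSeq promoters (GRCm38.p6) matched 42 of the 56 genes by symbol. A C at the annotated start followed by at least 4 bases that are all C or T was present in 1 of the 42, Eif3f, or 2.4%, against 3.0% of all 27025 genes of the table. Eif3f, a scaffold subunit of eIF3, is shown with its tract in capitals, from 10 bases before the annotated start, and beside it Eef1a1, whose message is known to carry the tract and whose annotated RefSeq start does not. The lines cover chr7:108934405-108934434 (plus strand) and chr9:78481705-78481734 (minus strand).
Eif3f: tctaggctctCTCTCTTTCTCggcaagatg
Eef1a1: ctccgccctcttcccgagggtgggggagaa
Eif3f itself stood at −0.11, with overlapping groups. Allowing the C to lie within 5 bases of the start gave 9 of 42 genes, Eef1a1 among them. That is 21.4%, near the 21.2% of all genes and the 23.8% of tested genes with a promoter there. Whether the annotated starts are those used in these cells was not tested, so the match at Eef1a1 need not be its known tract.

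The letters CACGTG, the E-box to which MYC and related factors bind, were in the promoter windows, 250 bases before to 50 after the annotated start, of 12 of the 42 genes, 28.6%, against 8.1% of all genes of the table and 11.6% of the 10416 tested genes with a promoter there. The motif reads the same on both strands, windows of all annotated starts of a gene were searched, and a match is a description of letters, not of binding. Eef2, Eef2k, Eif1b, Eif3a, Eif3f, Eif3k and Eif4h held the motif and are not shown, although the share of Eif1b was described above. The genes shown are Eif4a1, Eif4g1, Eif5a, Eif5a2 and Eif4e, from the related genes described by their shares, with the motif in capitals. They lie at chr11:69672595-69672624 (minus strand), chr16:20672661-20672690 (plus), chr11:69921443-69921472 (minus), chr3:28781123-28781152 (plus) and chr3:138527028-138527057 (plus).
Eif4a1: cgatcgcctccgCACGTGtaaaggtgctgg
Eif4g1: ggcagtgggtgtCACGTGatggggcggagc
Eif5a: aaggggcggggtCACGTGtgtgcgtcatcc
Eif5a2: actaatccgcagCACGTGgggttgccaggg
Eif4e: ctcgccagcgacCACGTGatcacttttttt
The motif began 189, 54, 74, 142 and 228 bases before the annotated start in this order, for Eif4e before the other of its listed starts. Genes with the motif lay on both sides of 0. The 12 had a median log2 fold change of −0.15, from −0.42 for Eif5a to 0.32 for Eif5a2, and 10 lay below 0. The 28 tested genes whose windows lacked these letters had a median of −0.20, with 23 below 0.

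Among 50 other genes of the translation pathway, 1 rose and 0 fell (edgeR, against 1.77% and 0.843% of all genes), with 23 above 0 and 27 below it and a median log2 fold change of −0.028. The gene that rose was Impact, whose product restrains GCN2, a kinase that phosphorylates eIF2. It had 109, 113 and 140.4 CPM in p27OE cells, against 62.5, 64.2 and 63.9 CPM in EV control cells, every p27OE library well above every EV control library, with a log2 fold change of 0.93 ± 0.11 (adjusted p = 0.0303 with edgeR). That call held without EV control 1 and was lost without any other single library (adjusted p 0.0544 to 0.189), while the log2 fold change stayed between 0.80 and 0.98. Pdcd4, an inhibitor of the helicase eIF4A, had 36.9, 35.4 and 32.9 CPM in p27OE cells, against 28.4, 17.7 and 19.8 CPM in EV control cells, without overlap and with a log2 fold change of 0.68 ± 0.18 (adjusted p = 0.082 with edgeR). Pabpc4, a poly(A)-binding protein, had 231, 229 and 198 CPM in p27OE cells, against 274, 282 and 292 CPM in EV control cells and a log2 fold change of −0.36 ± 0.089 (adjusted p = 0.0712 with edgeR). Tsc2, which holds mTORC1 back, was at 0.26 ± 0.065, and Rptor, a subunit of mTORC1, at 0.31 ± 0.087, both with higher values in every p27OE library and neither passing (edgeR adjusted p = 0.0739 and 0.0887). Of the 10 genes of mTORC1 and S6 kinase signalling 7 lay above 0 and 3 below, where 48.2% of all tested genes lay below. Of the 6 genes that regulate eIF4E and eIF4A, 5 lay above 0 and 1 below. Of the 8 genes of the eIF2 kinases and phosphatases, Impact among them, 6 lay above 0. Of the 9 termination and recycling genes 8 lay below 0, where 48.2% of all tested genes did, and 0 of the 9 had separate groups (33.3% of all tested genes). Among all 50 pathway genes, 13 were separate with p27OE higher and 13 with p27OE lower (16.8% and 16.5% of all tested genes). Of the 7 genes that make diphthamide, the modified residue of eEF2, 6 lay below 0. Genes of poly(A) binding lay below 0 in 4 of 5, initiation helicases in 2 of 3 and hypusine synthesis genes in 1 of 2. Apart from Impact, none of these passed.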

How the data were processed

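RNA from 6 fibroblast samples was extracted on columns and made into libraries with a TruSeq RNA kit, per the labels' protocols. The authors deposited raw counts of reads for each symbol. The submitters' processing notes list featureCounts 1.4.6 with Subread, TopHat2 2.0.14 and Bowtie2 2.2.6, and mm10. The annotation and the strand setting are not given in the sources used here, so overlapping genes and near-identical copies may share or lose reads. Columns matched samples by title. Within groups, no library repeated another within sampling noise: chi-square per gene was 6.49 between EV control 2 and 3 and 55.5 to 188 between the other pairs.

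Counts were filtered with filterByExpr (13990 genes), scaled by TMM and tested with edgeR 4.0.16 (glmQLFit, robust; glmQLFTest, two-sided) in R 4.3.3, group as the only term, with Benjamini-Hochberg adjustment over all genes, called under 0.05. SE is the log2 fold change over the square root of F; intervals are 95%. Log2 CPM differences between libraries used a prior count of 2. GENCODE M21 (GRCm38, the assembly of mm10) gave exon lengths and positions by exact symbol for all 56 members. The fit was tested on simulated data. Members and lists were chosen with earlier results of these data known. The named genes are the called members, the 12 with the smallest p and 20 fixed ones; others appear with fold changes or after their values were seen. The CACGTG search and the shares among related genes were added after the data were seen. Alternatives were other filters, scaling by RLE, upper quartile or library total, DESeq2 1.42.0, limma-voom (limma 3.58.1), the replicate number as a block, the Y-linked level as a term, each library left out, and both libraries numbered 1 left out.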

Additional observations from a re-analysis of the deposited data

How the results depend on the processing

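RLE, upper-quartile and total-count scaling, both other filters and limma-voom left 0 members called, and the 43 genes below 0 stayed 43 under each scaling and were 39 to 45 under all settings run. Counts moved under 4 settings, given as all genes, members and other pathway genes: DESeq2 gave 2321, 15 and 9, the replicate number as a block 2410 (17.2% of genes tested), 11 and 4, a term for the Y-linked level 4735, 29 and 18, and omission of both libraries numbered 1 gave 2334, 20 and 8, against 365, 0 and 1; the cause was not tested. Leaving out 1 library gave 1 to 1827 genes, 0 to 14 members and 0 to 6 pathway genes, the high values all without EV control 1. Deviations from the group means in libraries 1, 2 and 3 correlated across genes between groups at r = 0.67, 0.04 and 0.50. EV control 2 correlated best with p27OE 3 (0.56), and the block is therefore given only here. Cdkn1b ranged from 2.48 to 2.97 on the log2 scale without 1 library, and its call was lost without any library except EV control 1 (adjusted p up to 0.189). Of 26 members' fold changes under 16 settings, 11 of 416 values changed sign, all of genes near 0, 67 passed the threshold and 338 kept their sign and side of it. The sign changes were in Eif4g1 (0.015 with the Y-linked term, −0.18 to 0.015 without 1 library), Eif5b (0.020 with that term, −0.083 to 0.030), Eif3a (−0.065 to 0.003) and Eef2k (0.044 without both libraries numbered 1, −0.12 to 0.088). The difference in the members' share of counts was −0.17 percentage points without Eef1a1 and Eef2, and the looser start rule gave 9 genes in place of 1, since it admits more positions. The median SE was 0.094 for the members and 0.144 for all tested genes, beside median sizes of change of 0.20 and 0.22.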
